A study of Daucus carota subsp. sativus with 2 samples.

Results

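Proteases and peptidases, the enzymes that cut proteins and peptides, were described in root RNA of 2 carrots, a red one labelled Delhi and an orange one labelled Hybrid. Members were the transcripts of the deposited count table whose protein name held carboxypeptidase, aminopeptidase, protease, proteinase, peptidase, subtilisin, metacaspase or rhomboid, leaving out names with ubiquitin, proteasome, inhibitor or signal peptidase. This gave 95 of 19838 transcripts. The terms subtilisin and metacaspase matched 0 names, and 81.3% of all transcripts had an uncharacterized or missing protein name, so members of every class can lie outside the list. The series title calls the red carrot wild and the orange one modified, both are Daucus carota subsp. sativus, and neither was treated. Each variety is 1 poly(A)-selected library, so every difference is one between libraries, without a replicate check, and variety cannot be told apart from library. Counts summed to 11310179 in red and 7432754 in orange.

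Plant proteases serve separate ends. Clp and Lon are ATP-driven machines that clear damaged or unneeded proteins inside plastids, mitochondria and peroxisomes. Papain-type cysteine proteases and serine carboxypeptidases work largely in the vacuole and secretory pathway, where storage proteins are broken down. Some plant relatives of serine carboxypeptidases act as acyltransferases that decorate small molecules instead of cutting peptides. Methionine aminopeptidases trim the first residue of new proteins, and rhomboids cut within membranes.

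The name rule also caught 16 transcripts that are not proteases in their own right. Of these, 13 are named as retroelement polyproteins, in which an aspartic peptidase is 1 domain beside an integrase or reverse transcriptase. A further 2 are named for 26S protease regulatory subunit 7, an ATPase of the proteasome, and 1 is a tRNA-modifying enzyme with Glycoprotease 1 as a second name. They are counted as members by the rule, and totals are also given without them.

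Photosynthetic transcripts differed between these root libraries and are set beside what follows. The 45 transcripts named for chlorophyll a-b binding, photosystem or RuBisCO small chain proteins took 4.28% of red counts (exact binomial interval 4.27 to 4.29). Of orange counts they took 0.314% (0.310 to 0.318). Among the 41 measured, 33 (80.5%) passed 2-fold toward red and 3 (7.32%) toward orange. All 45 had counts in red, and 4 were at 0 in orange. The 39 core histone transcripts, a mark of dividing cells, took 0.0298% of counts in red and 0.0974% in orange. Their single transcripts went each way. Among the 26 measured, 8 (30.8%) passed 2-fold toward red and 12 (46.2%) toward orange. The same shares of all 14868 measured transcripts were 30.6% and 24.4%. Of the 39, 2 were at 0 in red and 4 in orange. The part of either marker difference in the protease values was not tested, and in bulk RNA fewer cells of a type and less RNA per cell cannot be told apart.

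More protease transcripts were higher in the red library than in the orange one. Counts were divided by a size factor per library, and 77 members had a mean of these scaled counts of 10 or more and are called measured. Of these, 40 (51.9%) passed 2-fold toward red while the 95% counting interval excluded equality, against 30.6% of all 14868 measured transcripts. In the other direction, 12 (15.6%) were at least 2-fold higher in orange, against 24.4% of all. Among the 2813 measured transcripts with an informative name the shares were 31.1% and 23.7%, close to those of the whole table. At 4-fold, 24 of the 77 passed toward red and 6 toward orange, against 19.8% and 12.6% of all measured transcripts. At the 2-fold limit, the remaining 25 members differed by less than 2-fold or had an interval that held equality. The median log2 fold, orange over red with 0.5 added to scaled counts, was -1.08 for the members and -0.07 for all measured transcripts.

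The direction did not rest on the names that are not proteases. Without those 16 transcripts, 35 of 64 measured members passed toward red and 11 toward orange, and the median log2 fold was -1.12. Scaling moved the split. Red had 76.9% of the members' 2-fold differences with size factors and 64.6% (31 against 17) after scaling by library totals, a change that moved the log2 folds of the measured members toward orange by 0.21 to 0.42. With totals, 9 members lost their red call and 5 gained an orange one; 24.7% of all measured transcripts were then higher in red and 33.8% in orange. Set against the median of all measured transcripts, the members' median stood at -1.02 with size factors and -1.03 with totals.

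**Figure D1:**
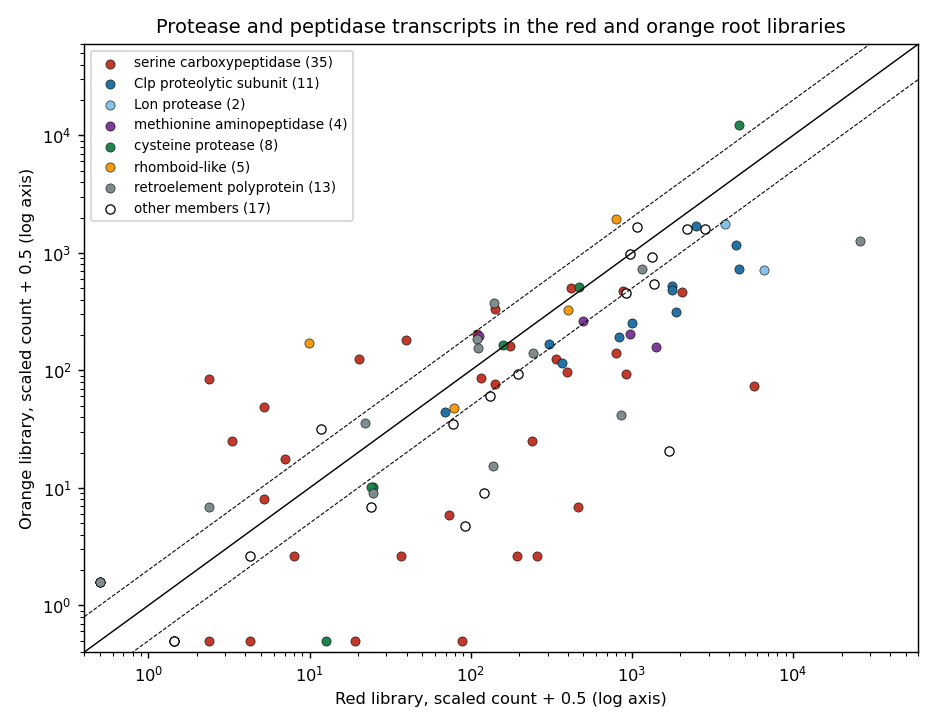
Each point is 1 of the 95 members, placed by its scaled count plus 0.5 in the red library (x, log axis) and in the orange library (y, log axis). The solid line marks equality and the dashed lines a 2-fold difference. The 11 Clp subunits lie below the equality line, while serine carboxypeptidases scatter far to each side.

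The classes did not share 1 direction. All 13 transcripts of the ATP-dependent class (Clp and Lon) and all 4 of the metallo class were toward red, with median log2 folds of -1.90 and -1.24. Of all 14868 measured transcripts, 7722 were toward red. Carboxypeptidases (27 measured, median -1.08) went each way, with 14 (51.9%) past 2-fold toward red and 7 (25.9%) toward orange. Over all measured transcripts these shares were 30.6% and 24.4%, the orange one close to that of the class. The 5 aminopeptidases had a median of -0.92 and the 7 measured transcripts outside the named classes -0.84. The 11 measured aspartic transcripts had a median of -0.78, but 10 of them are retroelement polyproteins. Only rna30755 is named as an aspartyl protease, at a log2 fold of -4.28. Cysteine proteases (5 measured, median 0.04) and rhomboid-like proteins (4 measured, median 0.48) lay nearest equality or toward orange, but without the filter on low counts these medians turned to -0.60 (8 transcripts) and -0.31 (5 transcripts). Tripeptidyl-peptidase II, the single member of the serine class, was at -3.75. Classes follow the wording of names and not the catalytic type. Serine carboxypeptidases and rhomboids therefore lie outside the serine class, and a thiol peptidase outside the cysteine class.

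**Figure D2:**
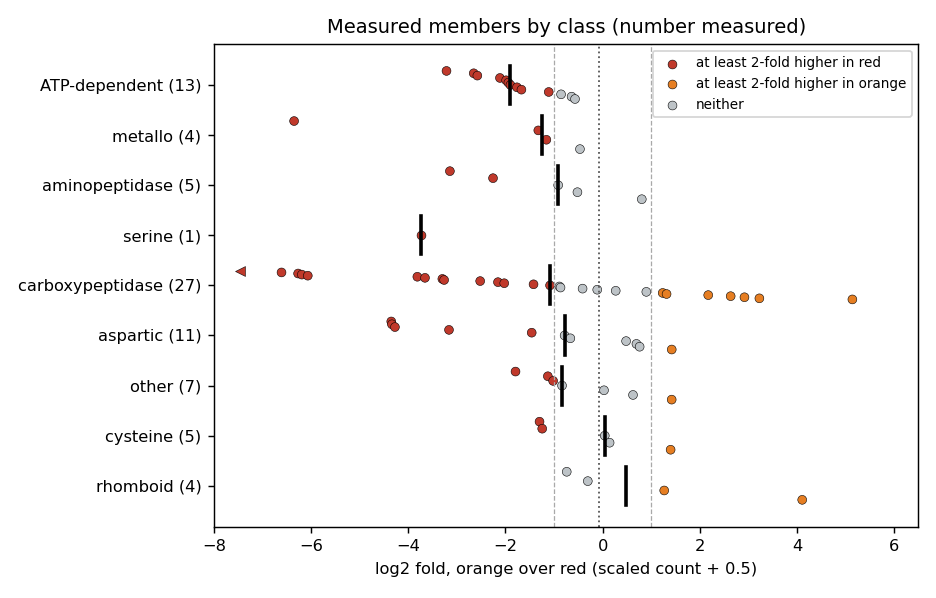
Log2 fold, orange over red, of the 77 measured members (points) by class, with the class median (thick bar), the median of all measured transcripts (dotted line) and 2-fold limits (dashed lines). Colour shows the call, and the arrowhead is a carboxypeptidase with 0 counts in orange, placed by the added 0.5. ATP-dependent members all lie left of equality, and carboxypeptidases span the axis. Of the aspartic members drawn, 10 are retroelement polyproteins.

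Clp proteolytic subunits form the cutting chamber of the Clp protease, which in plants is mainly a plastid enzyme that keeps up protein quality in the stroma. Each of the 11 Clp subunit transcripts was toward red, as were 7722 of all 14868 measured transcripts. With either scaling, 8 of the 11 were at least 2-fold higher in red. Over all measured transcripts that share was 30.6% with size factors and 24.7% with total-count scaling. DCAR_002891 drew 4904 red and 684 orange counts, 6.30-fold higher in red (interval 5.81 to 6.83). DCAR_021957 had 4744 and 1085 counts, a 3.84-fold difference (3.59 to 4.11), and DCAR_025884 had 2003 and 294, a 5.98-fold difference (5.29 to 6.79). So the transcripts were high in red and several-fold lower in orange. Next came DCAR_004238 (884 and 179 counts, 4.34-fold), a subunit with no carrot locus name (rna12910, 1071 and 237, 3.97-fold), DCAR_008450 (1903 and 448, 3.73-fold), DCAR_028994 (1892 and 489, 3.40-fold) and DCAR_008176 (393 and 108, 3.20-fold). The other 3 stayed under 2-fold: DCAR_026898 (324 and 157 counts, 1.81-fold), DCAR_023458 (73 and 41, 1.56-fold) and DCAR_022148 (2682 and 1588, 1.48-fold, 1.39 to 1.58). Summed over the 11, scaled counts were 3.45-fold higher in red (3.35 to 3.56), beside a photosynthetic sum that was 18.2-fold higher in the same library (18.0 to 18.5). DCAR_021957 was named by the naming rule, and the other Clp subunits were picked with their values known.

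Lon protease homolog 2 works in the peroxisome, where its plant form, known from Arabidopsis, removes matrix proteins that are no longer needed. Both Lon transcripts carry the locus name DCAR_008306. The transcript rna12886 drew 7031 red and 665 orange counts, 9.29-fold higher in red (8.57 to 10.1), whereas rna8357 had 4033 and 1641, 2.16-fold higher (2.04 to 2.29). The second fell below 2-fold when libraries were scaled to their totals. In red the first transcript drew more counts than the second, and in orange the order was the opposite, so the transcripts of this locus name were in different proportion in the libraries. Together they were 4.21-fold higher in red (4.03 to 4.41).

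Among proteases tied to organelles by name, the chloroplast EGY1 transcript showed the widest difference. Of the transcripts in this paragraph, only EGY1 and ATP23 have an organelle in their names. EGY1 is a membrane metalloprotease needed for chloroplast development in Arabidopsis. The carrot transcript is putative by its deposited name. It drew 1809 red and 19 orange counts, 83.6-fold higher in red (53.4 to 139). The C-terminal-processing peptidase of family S41A, whose best-known plant relative trims a photosystem II reaction-centre protein, had 1455 and 510 counts, 2.51-fold higher in red (2.26 to 2.78), and was under 2-fold with total-count scaling. The naming pattern placed this serine-type peptidase in the metallo class by its wording alone. Peptidase M16, of a family that includes mitochondrial processing peptidases, had 2347 and 1491 counts and differed by 1.38-fold (1.295 to 1.48). ATP23, a protease of the mitochondrial inner membrane, had 140 and 56 counts, 2.20-fold higher in red (1.60 to 3.05; 1.64-fold with total-count scaling). A saccharolysin or thimet oligopeptidase transcript (82 and 32 counts) differed 2.25-fold toward red (1.48 to 3.50; 1.68-fold with total-count scaling). ATP23 and this oligopeptidase were picked with their values known. Oligopeptidase A, which by its relatives degrades short peptides, had 3031 and 1491 counts and stayed at 1.79-fold (1.68 to 1.90).

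Methionine aminopeptidases, which remove the starting methionine from new proteins, were split by transcript. The transcript rna37920 drew 1504 red and 149 orange counts, 8.87-fold higher in red (7.49 to 10.6). A second one, rna37921, named as the 1B isoform, had 1041 and 191 counts, 4.79-fold higher in red (4.10 to 5.62). The locus name DCAR_030077 covers 2 further transcripts that went opposite ways. Of these, rna48473 had 531 and 247 counts, 1.89-fold higher in red (1.62 to 2.20), and rna48470 had 119 and 183, 1.75-fold higher in orange (1.38 to 2.22; above 2-fold with total-count scaling). Summed, that locus name differed by 1.33-fold (1.17 to 1.503). The remaining aminopeptidase, DCAR_003141, had 1423 and 872 counts, 1.43-fold higher in red (1.32 to 1.56).

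**Figure D3:**
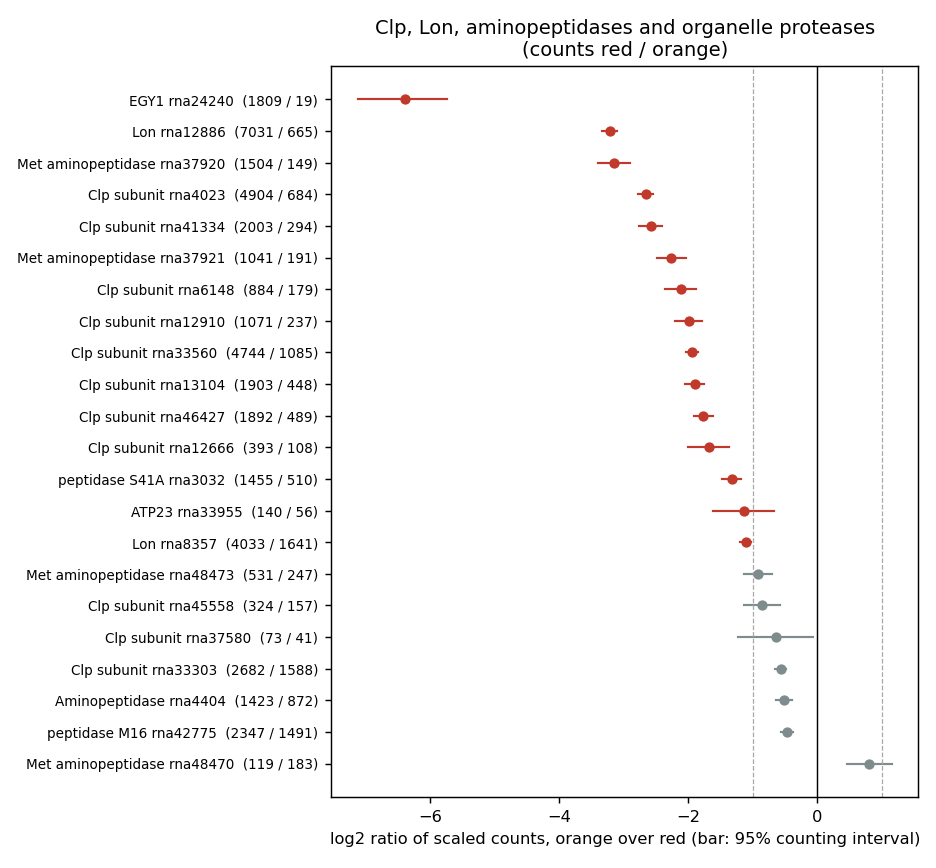
Log2 ratio of scaled counts, orange over red, with counts in red and orange beside each transcript. Drawn are Clp and Lon subunits, aminopeptidases, EGY1, ATP23, and the S41A and M16 peptidases, whose names give no organelle. Bars are 95% counting intervals, dashed lines mark 2-fold, and colour marks transcripts at least 2-fold higher in red. Of these 22 transcripts, rna48470 alone lies right of equality.

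Serine carboxypeptidases, of peptidase family S10, cleave residues from the C-terminal end of proteins and include the acyltransferase relatives. By protein names with carboxypeptidase they formed the group with the most members, 35, of which 26 were measured. A transcript named only for the S10 domain (rna15575, 4 red and 2 orange counts) fell outside the name pattern and below the filter. Of the measured ones, 13 were called for red and 7 for orange. Thus 20 of 26 (76.9%) differed by at least 2-fold, against 55.0% of all measured transcripts. The median size of the log2 fold, ignoring direction, was 2.58 for these and 1.15 for all. At 10-fold, 7 were higher in red and 2 in orange, where 11.1% and 6.61% of all measured transcripts reached that size. Total-count scaling left 13 higher in red and gave 8 in orange.

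On the red side, DCAR_011040 drew 6096 red and 69 orange counts, 77.6-fold higher (61.2 to 99.9), and took 41.8% of the group's red counts. DCAR_003619 had 274 and 2 counts, a ratio of 120.3 (33.0 to 999), and DCAR_006134 had 494 and 6, a ratio of 72.3 (33.0 to 198). DCAR_008054 drew 94 red and 0 orange counts, at least 27.5-fold higher in red against a floor of 3 counts in the orange library. None of these 4 had more than 69 counts in orange. With less contrast, the serine carboxypeptidase-like 18-like transcript rna1983 (980 and 87 counts) differed 9.89-fold toward red (7.94 to 12.5). The transcript rna29851 (256 and 23) had a ratio of 9.78 (6.37 to 15.7), and DCAR_004771 (2192 and 432) was 4.46-fold higher (4.02 to 4.95). Singled out with their values known, DCAR_026895 (852 and 130 counts) was 5.76-fold higher in red, DCAR_020587 (419 and 90) 4.09-fold, DCAR_030221 (358 and 117) 2.69-fold, DCAR_017913 (78 and 5) 13.7-fold and DCAR_003228 (39 and 2) 17.1-fold. The single transcript named carboxypeptidase B2, a metal-dependent type in animals that is not counted in this group, had 208 and 86 counts, 2.12-fold higher in red (1.64 to 2.76; 1.59-fold with total-count scaling).

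On the orange side, red counts ranged from 2 to 151, and that they lie below the orange ones follows from the call. DCAR_006406 drew 151 red and 313 orange counts, 2.36-fold higher in orange (1.94 to 2.89), and DCAR_016353 had 21 and 117, 6.34-fold higher (3.96 to 10.6). DCAR_025658 had 2 and 78 counts, a ratio of 44.4 (11.9 to 373), on few red counts. It was picked with its value known, like DCAR_029025 (3 and 23 counts, 8.73-fold) and DCAR_031636 (7 and 16 counts, 2.60-fold, 1.01 to 7.48). None of the carboxypeptidases at least 2-fold higher in orange had more than 313 counts there. The summed scaled counts of the group were 4.06-fold higher in red (3.91 to 4.22), and 2.41-fold higher (2.32 to 2.52) without DCAR_011040.

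Under 2-fold were SCPL9 (944 and 447 counts, 1.85-fold higher in red, 1.66 to 2.08), DCAR_030222 (117 and 192, 1.87-fold higher in orange, 1.48 to 2.37; above 2-fold with total-count scaling), DCAR_020089 (445 and 471, 1.21-fold), DCAR_006112 (187 and 152, 1.08-fold) and rna36816 (123 and 81, 1.33-fold). SCPL9 and DCAR_030222 were named by the rule. The loci DCAR_030221 and DCAR_030222 have consecutive names and went opposite ways.

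The locus name DCAR_006137 is shared by 6 carboxypeptidase transcripts with unlike balances. The transcript rna9245 drew 205 red and 2 orange counts, a ratio of 90.0 toward red (24.6 to 748). In contrast, rna8111 had 42 and 168 counts, 4.55-fold higher in orange (3.23 to 6.55), and rna8129 had 5 and 45, 10.2-fold higher in orange (4.08 to 33.1). Between them, rna8110 had 150 and 72 counts, 1.83-fold higher in red (1.37 to 2.46), and the other 2 had at most 2 counts in either library. Summed over the name, 404 counts in red and 288 in orange gave a difference of 1.23-fold (1.06 to 1.44). Near-identical copies can exchange reads in counting, which would make the values of single transcripts less certain. Whether these 6 transcripts are such copies was not tested. The transcripts rna8110 and rna8129 were picked with their values known.

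**Figure D4:**
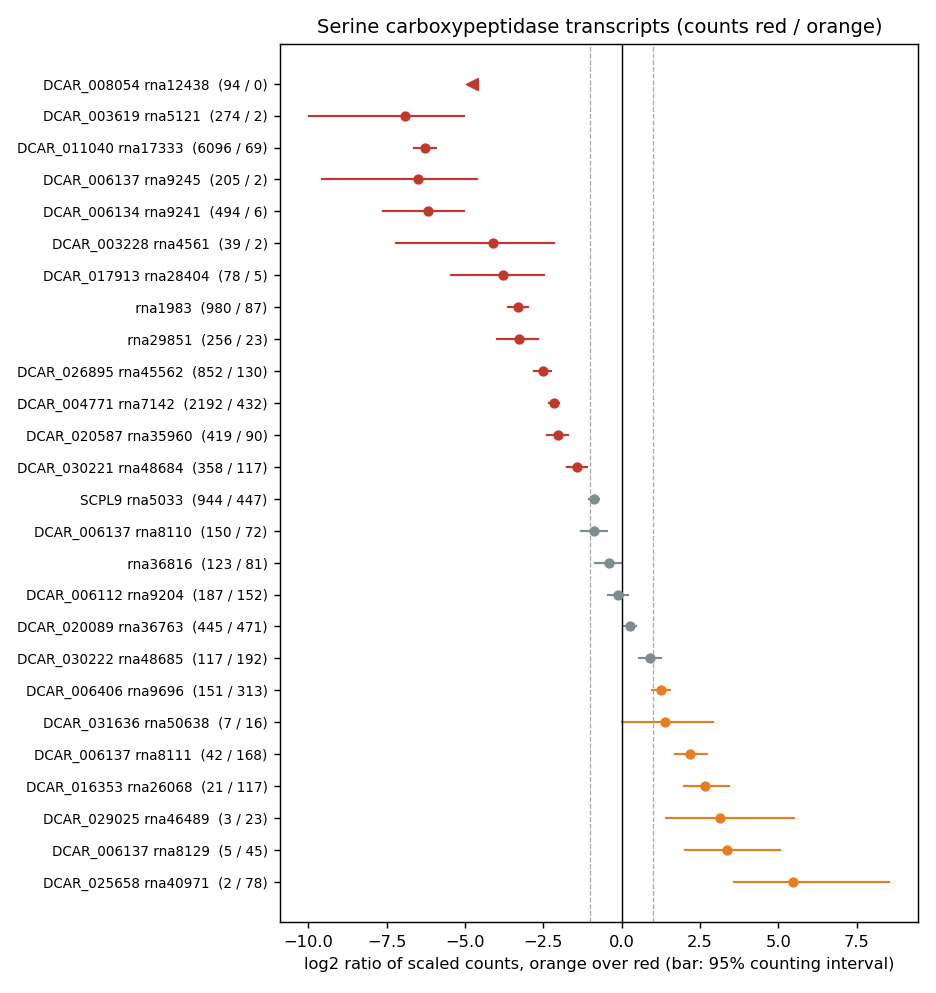
Log2 ratio of scaled counts, orange over red, of the 26 measured serine carboxypeptidase transcripts, with counts in red and orange beside each. Bars are 95% counting intervals, dashed lines mark 2-fold, and the arrowhead is a lower bound for a transcript with 0 counts in orange. In colour are the 13 transcripts called higher in red (top) and the 7 called higher in orange (bottom), with 6 in grey between them.

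Cysteine proteases were led by DcCysP6, named only as a cysteine protease, which was higher in orange. DcCysP6 drew 4958 red and 11483 orange counts, 2.64-fold higher in orange (2.55 to 2.73). It took 31.7% of the orange counts of all 95 members. DCAR_023584 (498 and 483 counts, 1.10-fold, 0.972 to 1.25) and DcCysP8 (169 and 153 counts, 1.03-fold, 0.823 to 1.29) had intervals that held equality. The KDEL-tailed endopeptidase CEP1, whose Arabidopsis form acts in programmed cell death, had 26 and 9 counts, 2.54-fold higher in red (1.15 to 6.15). A cysteine proteinase fragment, CSCP, had 25 and 9 counts, 2.44-fold higher in red (1.10 to 5.94). These low-count transcripts were picked with their values known, and neither passed 2-fold with total-count scaling. Below the filter were DcCysP1, with 13 counts in red and 0 in orange, and the 2 DcCysP2 transcripts, with 1 count each. The class took 0.0503% of red counts (0.0490 to 0.0516) and 0.163% of orange counts (0.160 to 0.166). Without DcCysP6 its summed scaled counts were 1.02-fold different (0.916 to 1.13).

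Their protein inhibitors, the cystatins, block papain-type enzymes. Of 5 transcripts named cysteine proteinase inhibitor, 4 were measured and 3 of those were toward orange, as were 7145 of all 14868 measured transcripts. At least 2-fold higher in red was 1 of the 4, and 1 in orange. Over all measured transcripts these shares were 30.6% and 24.4%, and 4 transcripts are too few to set apart from them. DCAR_013534 drew 889 red and 2252 orange counts, 2.88-fold higher in orange (2.67 to 3.12). EICC had 2116 and 3386 counts, 1.82-fold higher in orange (1.73 to 1.92), and DCAR_031840 had 751 and 1054, 1.60-fold higher (1.45 to 1.76). DCAR_002225 went the other way, with 56 and 5 counts, 9.84-fold higher in red (3.97 to 31.5). The summed scaled counts of the inhibitors were 2.001-fold higher in orange (1.92 to 2.08), and those of the cysteine proteases 2.43-fold (2.35 to 2.51).

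Rhomboid-like proteins, intramembrane serine proteases or their inactive relatives, had 0 of 4 measured transcripts past 2-fold toward red and 2 toward orange, where 30.6% and 24.4% of all measured transcripts were, too few members to set apart from those shares. DCAR_014594 drew 855 red and 1808 orange counts, 2.41-fold higher in orange (2.22 to 2.61). DCAR_028748 had 10 and 159 counts, 18.1-fold higher in orange (9.59 to 38.5). The other 2 measured ones leaned to red, rna19079 with 428 and 304 counts (1.24-fold, 1.07 to 1.44) and rna30456 with 84 and 44 (1.68-fold, 1.15 to 2.47). With total-count scaling rna19079 leaned to orange instead (log2 0.11). The fifth transcript had 1 count in all. Summed scaled counts of the class were 1.91-fold higher in orange (1.79 to 2.05). Without DCAR_014594 they were 1.10-fold higher there, with an interval that held equality (0.975 to 1.25).

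Single members of other types went each way. Of the 7 measured transcripts outside the named classes, 3 passed 2-fold toward red and 1 toward orange. With total-count scaling these numbers were 1 and 2. The shares of all measured transcripts were 30.6% and 24.4%, and 24.7% and 33.8% with total-count scaling. So few members cannot be set apart from those shares. Tripeptidyl-peptidase II, a large cytosolic serine peptidase that releases tripeptides, drew 129 red and 8 orange counts, 14.2-fold higher in red (6.98 to 33.5). An aspartyl protease (rna30755, picked with its value known) had 98 and 4 counts, a ratio of 21.5 (8.14 to 80.5). Proline iminopeptidase, which frees N-terminal proline, had 986 and 427 counts, 2.03-fold higher in red (1.81 to 2.28; 1.52-fold with total-count scaling), so it sits at the limit. A PPPDE thiol peptidase had 12 and 29 counts, 2.75-fold higher in orange (1.36 to 5.92). Both were picked for mention with their values known. The 26S regulatory subunit transcripts were close to equality or under 2-fold, rna32530 with 1033 and 925 counts (1.02-fold, 0.932 to 1.12) and rna11787 with 1151 and 1559 (1.54-fold higher in orange, 1.43 to 1.67; above 2-fold with total-count scaling). The tRNA-modifying enzyme had 25 and 6 counts, 3.66-fold higher in red (1.47 to 10.9).

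Retroelement polyproteins brought the largest count of any member. The transcript rna35985 drew 27682 red and 1191 orange counts, 20.4-fold higher in red (19.3 to 21.6). It alone held 27.3% of the red counts of all members and 90.3% of those of the 13 polyproteins. Also higher in red were rna24390 (908 and 39 counts, 20.4-fold, 14.8 to 28.9) and, picked with their values known, rna49611 (147 and 14, 9.22-fold) and rna10046 (26 and 8, 2.85-fold, 1.255 to 7.29; no longer called with total-count scaling). In the other direction rna3646 had 148 and 349 counts, 2.69-fold higher in orange (2.21 to 3.28). The remaining 5 measured ones were under 2-fold, among them rna15687 (1226 and 679 counts, 1.59-fold higher in red) and rna28348 (116 and 173, 1.70-fold higher in orange; above 2-fold with total-count scaling). The summed scaled counts of the 13 were 9.72-fold higher in red (9.35 to 10.1), and 1.65-fold higher (1.56 to 1.76) without rna35985.

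The summed members took 0.896% of red counts (0.891 to 0.902) and 0.488% of orange counts (0.483 to 0.493). Their scaled sum was 2.45-fold higher in red (2.43 to 2.48), and 1.94-fold (1.91 to 1.97) without the 16 transcripts that are not proteases in their own right. Leaving out rna35985 alone lowered the ratio of all 95 to 1.84-fold (1.82 to 1.87), and leaving out DcCysP6 alone raised it to 3.42-fold (3.37 to 3.46). ATP-dependent proteases took 0.282% of counts in red and 0.103% in orange, and carboxypeptidases 0.131% and 0.0436%. Transcripts outside the named classes took 0.0564% in red and 0.0605% in orange, though their scaled sum was 1.25-fold higher in red, since shares follow library totals.

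**Figure D5:**
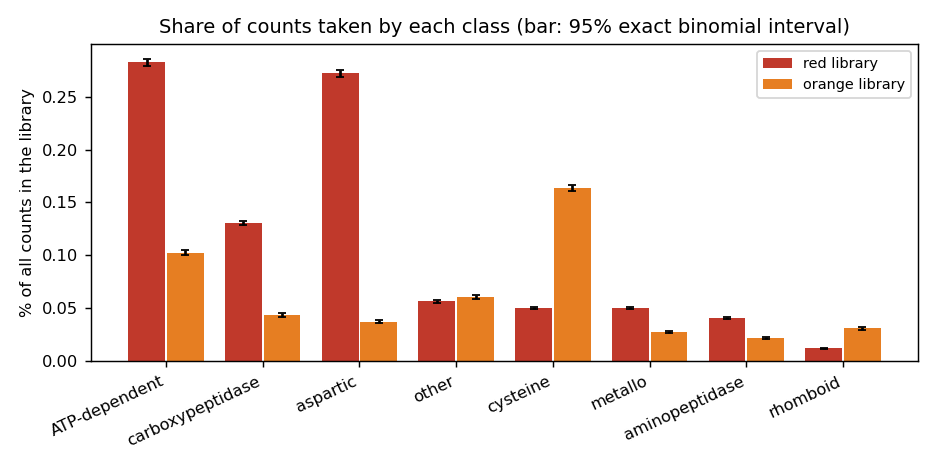
Share of all counts in each library (y, percent) taken by 8 classes of members, with 95% exact binomial intervals as error bars. The class named serine by its wording, with 1 transcript, is not drawn. Red bars are the red library and orange bars the orange library. ATP-dependent, carboxypeptidase and aspartic shares are larger in red, and the aspartic bar in red is mostly rna35985, a retroelement polyprotein. Cysteine and rhomboid shares are larger in orange. There, DcCysP6 holds 94.6% of the cysteine counts and DCAR_014594 holds 78.1% of the rhomboid counts.

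Other protein-breakdown genes were taken by name and went several ways. Over all measured transcripts, 30.6% passed 2-fold toward red and 24.4% toward orange. Of 20 measured proteasome transcripts, 2 passed 2-fold toward red, 3 toward orange and 15 neither, with a median log2 fold of -0.09. Signal peptidases, which remove targeting peptides at the endoplasmic reticulum, had 0 of 4 transcripts at that size (median 0.11). Autophagy transcripts had 1 of 7 higher in red and 2 in orange (median -0.08), and ubiquitin hydrolases 3 of 6 in red and 0 in orange (median -0.85). Lists of 4 to 7 transcripts are too small to set apart from the shares of all measured transcripts. Vacuolar processing enzyme or legumain matched 0 names. Whether the members differ from these lists was not tested.

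The authors' deposited tables class 13 members as up in orange over red, 40 as down and 27 as neutral, with 10 found in red only and 5 in orange only. Of these, 7 have a p-value of at most 0.05 in the authors' deposited tables and 0 an adjusted p-value of at most 0.05. The share of all transcripts at that p-value was not counted here, so no excess among the members is claimed. The 7 are all higher in red. They are EGY1, rna24390 and 5 carboxypeptidases, namely DCAR_006134, DCAR_003619, DCAR_011040, DCAR_008054 and rna9245. The lowest adjusted p-value among the members in the authors' deposited tables is that of EGY1, 0.217. The sources used here do not say how those p-values were reached from 1 library per group.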

How the data were processed

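Poly(A)-selected root RNA of a red and an orange carrot was sequenced, 1 library each, grouped by title. FastQC, cutadapt, HISAT, HTSeq and DESeq are listed, without version or order, per the submitters' processing notes. Neither build nor annotation is given in the sources used here. Deposited by the authors were read counts per transcript with protein and gene names, and normalised counts, a signal equal to the count times 1 constant per library, which matched the scaled counts used here to within 5.1e-11. Folds (an orange over red ratio), their log2 values and p-values are in the authors' deposited tables.

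Size factors by the median-of-ratios method were 1.07 (red) and 0.937 (orange), computed over those of the 19838 transcripts with counts in both libraries (Python 3.11.15, numpy 2.4.6, pandas 2.3.3, scipy 1.17.1). A transcript was measured at a mean scaled count of at least 10. Ratios are of scaled counts; log2 folds add 0.5. Intervals around ratios are 95% and exact (Clopper-Pearson); like the floor of 3 counts, they cover counting error only. A call needs a 2-fold ratio and an interval that excludes equality. With 1 library per variety no p-value was computed here. Counts are not corrected for transcript length and are compared between libraries. Classes are patterns on protein names, first match taken. The finer groups (Clp, Lon, serine carboxypeptidases, retroelement polyproteins and others) were made after values were seen. The naming rule takes the 3 measured members of highest mean count per class, the 10 with the largest fold toward each library at a mean of at least 50, and those at 0 in 1 library with at least 50 in the other. It names 38; any other member named was picked with its values known. Members and lists were chosen with earlier results of these data known. Alternatives used edgeR 4.0.16 for TMM scaling, total counts, other filters, pseudocounts and call sizes. The procedure was tested on simulated counts. Carrot locus names found in the RefSeq gene table numbered 0, and neither coordinates nor sequences are printed. Some members, among them EGY1, SCPL9, CEP1 and carboxypeptidase B2, have a gene name that is not a carrot locus name. EGY1, SCPL9 and rna1983 are putative by their deposited names.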

Additional observations from a re-analysis of the deposited data

How the results depend on the processing

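No paired analysis was possible because each variety has 1 library. TMM scaling changed none of the 67 results recomputed with it. Total-count scaling shifted class medians to -1.48 (ATP-dependent), -0.67 (carboxypeptidase), -0.50 (aminopeptidase), -0.37 (aspartic), -0.82 (metallo), -0.42 (other), 0.46 (cysteine) and 0.90 (rhomboid), and the log2 ratio of the members' summed counts to -0.88. It turned the summed ratio of the other class (0.10) and rna19079 (0.11) toward orange, and left 1 cysteine and 1 metallo member at least 2-fold different. Log2 folds of the measured members moved toward orange by 0.21 to 0.42, least for low counts because of the added 0.5.

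Without the filter on low counts the rhomboid median turned to -0.31 and the cysteine median to -0.60, since transcripts with 1 to 13 counts enter. At a minimum mean of 50, 7 members were higher in orange, and 1 cysteine and 2 other members were at least 2-fold different. At 4-fold, 24 members were higher in red and 6 in orange, with 4 ATP-dependent, 1 rhomboid, 1 metallo, 0 cysteine and 0 other members past it. Summing transcripts per gene name gave medians of -1.39 (aminopeptidase), -3.35 (aspartic, with 2 past 2-fold, since 12 polyproteins share 1 name) and -0.93 (other). The median of the other class was -1.02 with narrower names and -0.93 without the names that are not proteases, an alternative chosen after the data were seen. A pseudocount of 5 moved none of the 19 results recomputed with it out of range. Depth limits the low counts: with 1 to 9 counts in a library, intervals span several-fold.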
